A study of Mus musculus with 30 samples.

Results

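The comparison is between 2 lines of mouse neuronal progenitor cells (NPCs), each carrying a changed form of MBD2a in place of MBD3. MBD2a is the long isoform of methyl-CpG-binding domain protein MBD2. The line MBD2aΔGR carries MBD2a without its glycine-arginine (GR) stretch, which lies ahead of the methyl-CpG-binding domain (MBD). The line MBD2aR191C carries the full-length protein with a single residue of its MBD changed. That residue is numbered R191C in the text of the study, R181C in the sample labels and R64C in the column names, and the lines hold no other point mutant. The members were all RNA-seq libraries of these lines: 6 of 24 RNA-seq libraries, and 6 of the 30 samples of the series. The libraries are called s16, s17 and s18 (MBD2aΔGR) and s19, s20 and s21 (MBD2aR191C), as the count columns name them, and values are always given in that order. All 25400 genes of the count table were considered, and 16582 passed the filter on low counts.

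All 24 libraries were poly(A) RNA from NPCs on day 8 of differentiation from HA36CB1 embryonic stem cells (ESCs), a line of mixed 129 and C57BL/6 origin. Apart from WT, all lines lack Mbd3, and the construct lines express a biotin-tagged protein from a CAG promoter at a recombination site in that background. Both lines compared therefore share the Mbd3 KO and still have their own Mbd2. Each of the 6 libraries came from a different clone, so the spread between them includes the differentiation of each clone. The spread behind each p was estimated over all 8 lines of the fit. The other lines are WT, Mbd3 KO, and Mbd3 KO with MBD3a, MBD3ΔMBD (MBD3 lacking its MBD), unchanged MBD2a or MBD2t (a truncated MBD2). The 3 MBD2t libraries are repeats of 1 clone, and the median SD of log2 CPM was 0.0726 in that line. It was 0.314 in MBD2aΔGR, the highest of the 8 lines, 0.252 in MBD2aR191C and 0.180 to 0.290 in the others. A spread estimated over all lines is therefore not that of MBD2aΔGR alone, and can be smaller.

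MBD2 and MBD3 are alternative subunits of the NuRD complex, which joins histone deacetylases to a CHD remodelling enzyme. A complex holds one or the other, never both. The MBD of MBD2 binds methylated CpG, while that of MBD3 has largely lost this affinity, and the GR stretch lies in the N-terminal part of MBD2a. NuRD is known for its role in letting pluripotent cells leave self-renewal and enter lineages, neural ones included.

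Construct and marker levels were examined first. In CPM, which are read counts scaled to library size and not to gene length, Mbd2 stood at 280.3, 451 and 700.2 in MBD2aΔGR and at 253, 256 and 325 in MBD2aR191C, against 40.8 to 50.4 in WT and 64.2 to 70.9 in Mbd3 KO. These reads come from the endogenous gene and, as far as the construct shares its sequence, from the construct. Every library of both lines was above every WT library. Among the 3 MBD2aΔGR clones the level spanned a wider range than among the MBD2aR191C clones, and s18 was highest. The difference between the lines was 0.78 on the log2 scale (SE 0.21), with an adjusted p of 0.0498 and a fold change under the threshold. Mbd3 read counts remained in both lines, at 45.8, 42 and 86.4 CPM and 76.9, 66.7 and 70.9 CPM, compared with 149 to 157 CPM in WT and 34.2 to 73.8 CPM in Mbd3 KO.

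NPC identity was checked on marker lists, which were chosen with earlier results of these data known. The summed level of 30 neural progenitor transcription factor genes was 3932, 2642 and 1616 CPM in MBD2aΔGR, 4406, 2755 and 3702 CPM in MBD2aR191C, 4307, 3887 and 3044 CPM in WT and 574, 865 and 867 CPM in Mbd3 KO. All 6 libraries were thus above the Mbd3 KO libraries, and s18 was the lowest of them. The same held for the radial glia list, at 2923, 2139 and 1233 CPM in MBD2aΔGR and 3328, 2070 and 2963 CPM in MBD2aR191C. In Mbd3 KO that list was at 317, 523 and 494 CPM. Pax6, a master regulator of neural progenitors, was at 167, 151 and 148 CPM against 121, 92.4 and 120.3 CPM, with 142 to 197 CPM in WT and 3.52 to 14.1 CPM in Mbd3 KO. Neurog1, a proneural factor, was at 113, 80.5 and 49.5 CPM and 130.4, 66.3 and 108 CPM, compared with 1.03 to 1.96 CPM in Mbd3 KO. Neither gene passed the test between the lines (Pax6 adjusted p = 0.59, Neurog1 adjusted p = 0.75). Totals of the 6 libraries ran from 33120415 to 49392806 counted reads, and 3 reads correspond to 0.0637 to 0.0921 CPM, a floor for counting error only. Library s18 stood apart from s16 and s17, and the counts of called genes and the gene lists are also given without it.

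The lines differed in 390 genes, 2.35% of the 16582 tested, at an adjusted p under 0.05 together with a log2 fold change beyond 1 in size, in the edgeR fit of all 24 libraries. Of these, 212 (1.28%) were higher and 178 (1.07%) lower in MBD2aΔGR. The genes that were lower included those of vessel, connective tissue and smooth muscle cells, and the genes that were higher included those of endoderm and of ventral neural patterning. The endoderm genes were high mainly in s18. Members called higher went from 20 to 0 in the endoderm list and from 6 to 2 in the patterning list without s18. Members called lower went from 12 to 3 in the mesenchyme list and from 6 to 2 in the endothelium list. At an unadjusted p under 0.05 there were 3172 genes. The libraries of the lines did not overlap for 314 of the 390 (80.5%), and for 1988 genes (12%) of all tested. This count depended on the fit: with only the 6 libraries in the fit, edgeR called 0 of 15326 genes (1196 at an unadjusted p under 0.05), and DESeq2 called 242. With all lines except MBD2t in the fit, edgeR called 157 (60 higher, 97 lower). The balance of higher and lower genes also turned. Of 267 genes called with edgeR's earlier quasi-likelihood test on all lines, 113 were higher and 154 lower. Of 209 called with a minimum of 1 CPM in 3 of the 6 libraries, 87 were higher and 122 lower. The smallest adjusted p of the edgeR fit of the 6 libraries was 0.0653, for Mfap2.

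**Figure D1:**
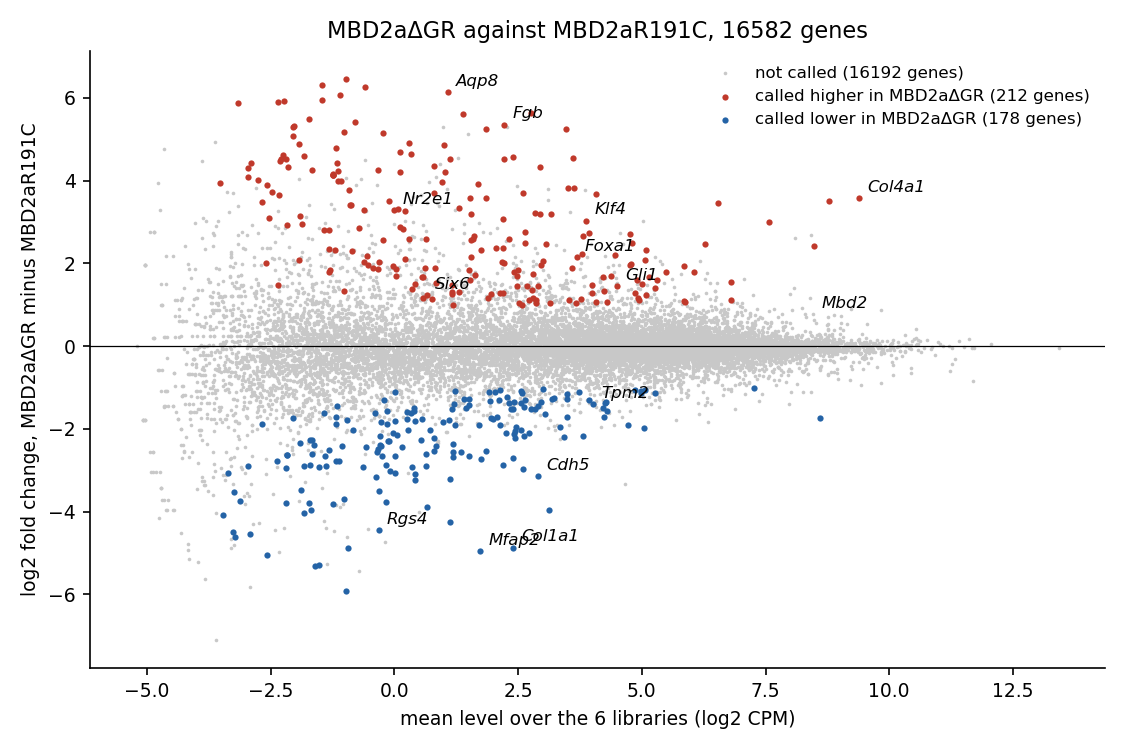
Each point is a gene, with the mean log2 CPM over the 6 libraries on the horizontal axis and the log2 fold change (MBD2aΔGR minus MBD2aR191C) on the vertical axis. Red points are the 212 genes called higher and blue points the 178 called lower in MBD2aΔGR, and grey points were not called.

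The distance of s18 from the other clones was measured over genes above a minimum count in each pair. The statistic grows with read counts, so abundant genes such as Col4a1 (21883 reads in s16 and 363066 in s18) weigh heavily in it. The chi-square statistic per gene between libraries was 36.1 for s16 and s17, but 288 for s16 and s18 and 198 for s17 and s18, beside 70.0 to 106 within MBD2aR191C. Of the 212 genes called higher, s18 was the highest MBD2aΔGR library in 188 (88.7%). The median log2 distance of these genes from the MBD2aR191C mean was 0.97 in s16, 1.00 in s17 and 3.62 in s18. Of the 178 genes called lower, s18 was the lowest in 135 (75.8%). For these genes the distances were -1.59, -1.90 and -2.75. Without s18 the fit called 42 genes (0.251%), 18 higher and 24 lower. Of the 212 genes, 205 kept their sign and 14 their call, and the median log2 fold change went from 2.57 to 0.99. Of the 178 genes, 178 kept their sign and 22 their call, and the median went from -2.12 to -1.82. Leaving out an MBD2aR191C clone also moved the count, to 48 genes without s19, 91 without s21 and 780 without s20. Of the 212 genes, 12 kept their call without s19 and 11 without s21, with median log2 fold changes of 2.53 and 2.45. Of the 178 genes, 34 and 77 did. Over all gene lists below, 55 members were called, and 9 without s18, 10 without s19, 14 without s21 and 109 without s16.

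**Figure D2:**
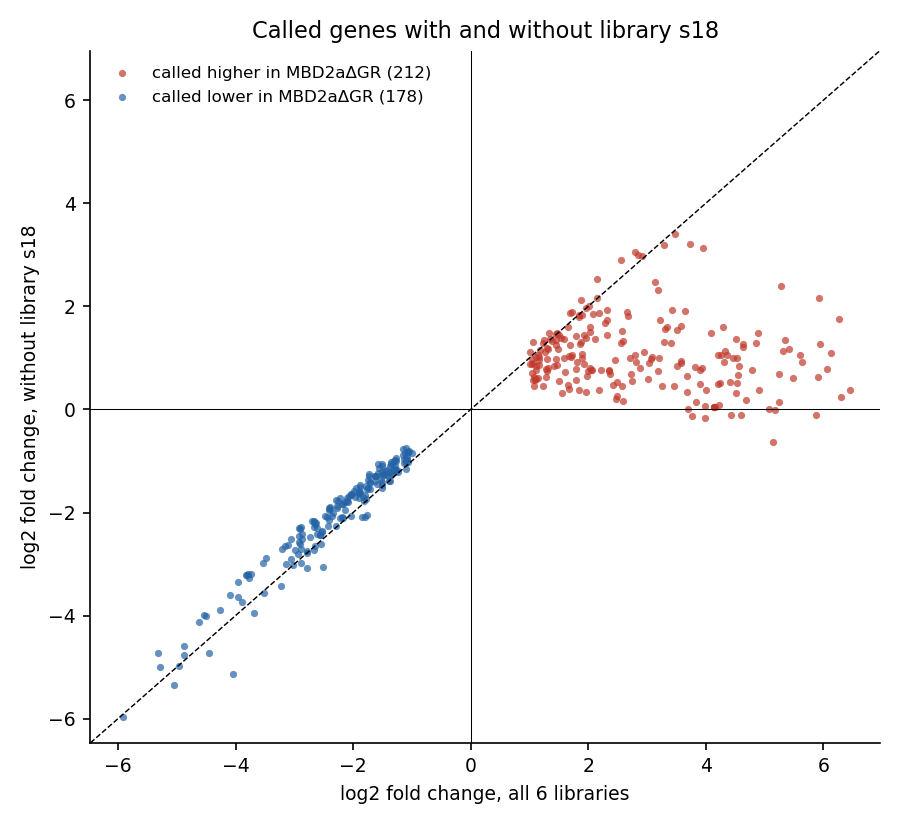
For the 390 called genes, the log2 fold change (MBD2aΔGR minus MBD2aR191C) with all 6 libraries is on the horizontal axis and that without s18 on the vertical axis, with the dashed line marking equal values. Blue points (178 called lower) lie near the line, and most red points (212 called higher) lie below it.

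Many genes of mesenchyme and smooth muscle were lower in MBD2aΔGR. Of 30 list members tested, 12 fell and none rose, while 1.07% of all genes tested were called lower and 1.28% higher. The median log2 fold change was -1.45, beside -0.027 over all genes tested. Without s18 the median was -1.32 and 3 members fell. Mfap2, a component of elastic microfibrils (chr4:140566333-140571899), was at 0.799, 0.387 and 0.609 CPM in MBD2aΔGR and at 24.5, 15.7 and 15.7 CPM in MBD2aR191C. The groups were far apart, and MBD2aR191C lay at the level of WT (13.9 to 23.1 CPM) while MBD2aΔGR lay at that of unchanged MBD2a (mean 0.923 CPM). It had the smallest p of all genes (log2 fold change -4.96, SE 0.35, adjusted p = 2.5e-07). Col1a1, a chain of type I collagen (chr11:94797538-94814356), was at 0.952, 1.76 and 0.665 CPM and 65.9, 17.3 and 14.8 CPM (log2 fold change -4.87, SE 0.79, adjusted p = 0.0047). All MBD2aΔGR clones were below all MBD2aR191C clones, and also below the Mbd3 KO clones (15.8 to 28.1 CPM). Its gene model overlaps one on the opposite strand, and whether counting used the strand is not given.

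Acta2, smooth muscle actin, was at 0.584, 0.804 and 0.249 CPM against 18.1, 6.57 and 6.35 CPM (log2 fold change -4.26, SE 0.74, adjusted p = 0.0082). Tpm2, a tropomyosin of muscle, differed less and with little spread, at 8.72, 11.5 and 9.92 CPM against 22.2, 30.4 and 26.7 CPM (log2 fold change -1.39, SE 0.18, adjusted p = 0.00086). In Mbd3 KO it was above both lines, at 66.1 to 90.2 CPM. The collagen VI genes Col6a1 and Col6a2 fell by 1.51 and 1.76 on the log2 scale, and Loxl1, an enzyme of elastic fibre assembly, fell by 1.90. The transcription factor genes Twist2 and Prrx1 of mesenchyme fell by 3.06 and 2.06. Lum, Ddr2 and Thy1 were the remaining members that fell, and for all 12 the lines did not overlap. Summed over the list, the level was 697, 733 and 725 CPM in MBD2aΔGR and 1097, 806 and 598 CPM in MBD2aR191C. The sums overlapped, and those of WT were 1231, 1123 and 540.1 CPM.

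Several endothelial genes fell as well. Of 19 members of the endothelium and blood list tested, 6 fell (Cdh5, Emcn, Pecam1, Cd34, Tie1 and Kdr) and none rose. Of all genes tested, 1.07% were called lower. The median log2 fold change was -0.98, and -1.34 without s18, where 2 members fell. Cdh5, which encodes the cadherin of endothelial junctions (chr8:106625525-106668402), was at 2.83, 2.77 and 2.08 CPM in MBD2aΔGR and 18.6, 28.8 and 20.003 CPM in MBD2aR191C. The lines did not overlap (log2 fold change -3.14, SE 0.47, adjusted p = 0.0024), and MBD2aR191C lay near WT (23.3 to 36.1 CPM). In Mbd3 KO the level was instead far above WT, at 85.2 to 174 CPM. Pecam1, an endothelial adhesion receptor, was at 2.37, 5.06 and 3.93 CPM and 7.73, 13.2 and 8.55 CPM (log2 fold change -1.37, SE 0.29, adjusted p = 0.019). Kdr, the main VEGF receptor of endothelium, was at 4.12, 3.84 and 1.3 CPM and 12.6, 14.5 and 10.3 CPM, and Tie1, an endothelial receptor kinase, at 1.17, 1.61 and 0.249 CPM and 7.03, 6.44 and 5.58 CPM. In these genes s18 had the lowest or a middle level, so the fall was present in s16 and s17 too. Summed over all members, the list was at 121, 127 and 304 CPM and 188, 241 and 170.2 CPM, and s18 was the highest of the 6 libraries.

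Genes of vessel biology were also among the 10 largest falls that the naming rule selects. Cd93, a receptor of endothelial and myeloid cells, was at 1.29, 1.01 and 0.166 CPM and 8.62, 6.57 and 7.2 CPM, and Lama4, a laminin chain of vessel basement membranes, at 1.2, 2.03 and 0.831 CPM and 10.2, 10.1 and 6.4 CPM (log2 fold change -2.73, SE 0.39, adjusted p = 0.0017). The other falls selected by that rule were Sparcl1, Col26a1, Myt1l and Gdf10. Sparcl1, a matricellular protein of glia, was at 3.47, 2.8 and 1.3 CPM and 71, 16 and 29.7 CPM. Myt1l, a zinc finger factor of neurons, was at 3.78, 1.28 and 0.859 CPM and 24.2, 9.34 and 9.13 CPM (log2 fold change -2.87, SE 0.71, adjusted p = 0.039), with a WT range of 2.8 to 22.1 CPM that spans part of both groups. In bulk RNA, fewer cells of a type and less RNA per cell cannot be told apart.

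**Figure D3:**
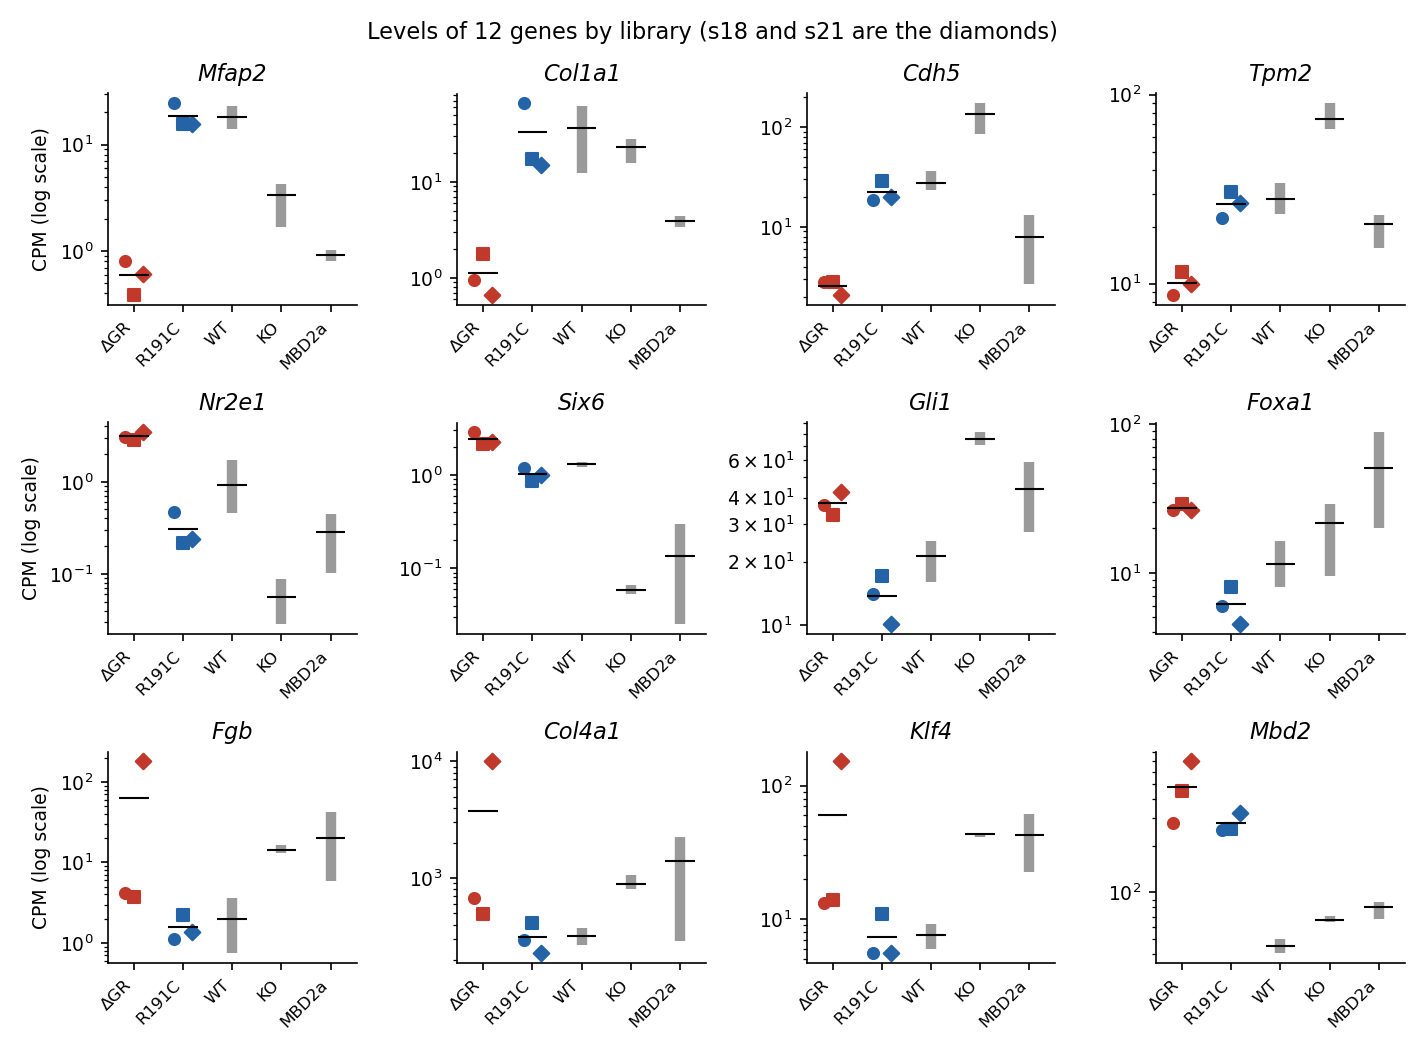
Levels in CPM on log axes, for 12 genes. Symbols are the MBD2aΔGR (red) and MBD2aR191C (blue) libraries with s18 and s21 as diamonds, horizontal lines are means of 3 libraries, and grey bars are the ranges of WT, Mbd3 KO and MBD2a. Mfap2, Col1a1, Cdh5 and Tpm2 are lower in all 3 MBD2aΔGR libraries, and Fgb, Col4a1 and Klf4 are high mainly in s18.

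Of the lists, that of endoderm had the most members on the higher side. All 37 tested members of the list of primitive, visceral and parietal endoderm had a positive log2 fold change, 20 rose and none fell, and the median was 3.01. Of all genes tested, 1.28% were called higher. Without s18 the median was 0.49 and none passed. Summed over the list, the level was 2564, 2211 and 32887 CPM in MBD2aΔGR, 1596, 2061 and 1362 CPM in MBD2aR191C, 1524, 1924 and 1613 CPM in WT and 3212, 3816 and 4695 CPM in Mbd3 KO. The s18 library was thus above every library of these lines, Mbd3 KO included, while s16 and s17 were above the highest MBD2aR191C library by less than the range within that line. Fgb, a fibrinogen chain made by visceral endoderm and liver (chr3:82846169-82853725), was at 4.15, 3.75 and 182 CPM against 1.1, 2.2 and 1.38 CPM (log2 fold change 5.36, SE 1.19, adjusted p = 0.024). The fold change was 1.36 without s18 (adjusted p = 0.67). Col4a1 and Col4a2, neighbouring genes for the basement membrane collagen that parietal endoderm makes in bulk, were at 672, 491 and 10056 and 451, 293 and 6378 CPM in MBD2aΔGR. In MBD2aR191C they were at 295, 414 and 228 and 207, 260.3 and 156 CPM.

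Gata4, an endoderm transcription factor, showed the same shape, at 12.9, 12.8 and 291 CPM against 5.16, 12.8 and 6.77 CPM, and its paralogue Gata6 was at 12.4, 14.4 and 138 CPM against 8.43, 11.2 and 5.37 CPM. In both, s18 was far above the other 5 libraries. Lamb1, Lamc1, Apoa2, Apoa4, Rbp4, Srgn, Ttr, Fgg, Cited1, Cldn6 and Lrp2 completed this pattern, with log2 fold changes from 1.41 (Lrp2) to 5.60 (Apoa4). The other largest rises under the naming rule were Aqp8, Pga5, Ctsh, Cemip, Fst and Klb, and s18 held the highest level in each. Aqp8, a water channel, had the largest of these, at 1.78, 1.13 and 141 CPM against 0.404, 1.1 and 0.582 CPM (log2 fold change 6.14, SE 1.42, adjusted p = 0.029). Without s18 the adjusted p of each of the 10 was at least 0.27.

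A few transcription factors of the endoderm list were higher in all 3 clones. Foxa1, a pioneer factor of endoderm that is also active in the ventral neural tube (chr12:58641618-58647108), was at 26.4, 28.9 and 26.5 CPM in MBD2aΔGR and 6.01, 7.97 and 4.52 CPM in MBD2aR191C (log2 fold change 2.14, SE 0.45, adjusted p = 0.018). The 3 clones hardly differed from each other, and the fold change without s18 was 2.16 (adjusted p = 0.075). Foxa2, its paralogue in endoderm and floor plate, was at 11.1, 8.64 and 62 CPM against 3.23, 3.65 and 1.91 CPM (log2 fold change 3.22, SE 0.59, adjusted p = 0.0096). Sox17, which specifies endoderm and also acts in endothelium, was at 63.9, 42.5 and 135 CPM against 17.6, 15.4 and 15.2 CPM. Without s18 the adjusted p was 0.064 for Foxa2 and 0.13 for Sox17. For these 3 genes the lines did not overlap, and WT ranged over 8.05 to 16.4 CPM for Foxa1 and 18.5 to 28 CPM for Sox17.

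Some genes of dorsal-ventral patterning rose. Of 29 list members tested, 6 rose (Gli1, Foxa2, En2, Olig2, Nkx6-1 and Nkx2-2) and none fell, beside 1.28% of all genes called higher. The median was 0.55, and 0.41 without s18, where 2 rose (Gli1 and En2). Of the 29 members, 18 had a positive log2 fold change. Summed over the list, the level was 835, 639 and 579 CPM in MBD2aΔGR and 760, 501 and 530 CPM in MBD2aR191C. The sums overlapped, and those of WT were 587 to 860 CPM. Gli1, effector and target of Hedgehog signalling (chr10:126766945-126778645), was at 37, 33.2 and 42.7 CPM against 14, 17.2 and 10.2 CPM (log2 fold change 1.45, SE 0.24, adjusted p = 0.0061). The lines did not overlap, and Mbd3 KO was higher than both (70.9 to 81.6 CPM). Olig2, a factor of motor neuron and oligodendrocyte progenitors, was at 6.3, 3.4 and 16.6 CPM against 1.89, 0.805 and 1.38 CPM, and Nkx6-1, a ventral progenitor factor, at 7.13, 2.68 and 46.8 CPM against 2.76, 0.859 and 0.953 CPM. Nkx6-1 overlapped between the lines, whereas Olig2 did not. En2, a midbrain and hindbrain homeobox gene, was at 8.42, 4.74 and 4.46 CPM against 2.23, 1.93 and 1.11 CPM (log2 fold change 1.72, SE 0.34, adjusted p = 0.015), and s18 had the lowest of its MBD2aΔGR levels. Bmp7, a dorsal signal, was at 29.1, 25.2 and 21.3 CPM against 57.7, 42.7 and 48.6 CPM. Its log2 fold change of -0.98 had an adjusted p of 0.0093 but was short of the threshold of 1. Gli1 overlaps Arhgap9 on the opposite strand, and Sparcl1, Ncam1, Pax6, Lhx2, Neurog3, Nkx2-2, Shh, Eya2, Six6, Pecam1, Cd34, Stab1, Gata3, Gata6, Ttr, Apoa4, Lamb1, Lamc1, Ddr2, Prrx1, Cldn10, Nol3, Stk32c, Cnrip1, Angptl1, Tmem204 and the neighbours Col4a1 and Col4a2 also overlap a gene model on the other strand, so their counts are uncertain to that extent.

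In the other neural lists few genes were called. Since 1.28% of all genes tested were called higher and 1.07% lower, a few calls in a list this short say little about it as a whole. Among neural progenitor transcription factors 1 of 30 rose, Otx1, which is nearly silent in all 6 libraries, and the median was -0.25. Without s18 the median was 0.05 and none passed. Lhx2 and Sp8, forebrain and limb patterning factors, were at 18.5, 18 and 12.4 and 63.3, 44.8 and 41.2 CPM in MBD2aΔGR and at 7.09, 4.53 and 2.99 and 30.7, 19.5 and 21.2 CPM in MBD2aR191C, and did not pass (adjusted p = 0.064 and 0.075). For each of them the lines did not overlap, which also holds for 12% of all genes tested. Of 19 radial glia genes 2 fell, Sparcl1 and Dll3, with a median of -0.42 and of -0.10 without s18, where none passed. Of 41 proneural and neuron genes 2 rose (Isl1 and Neurog3) and 1 fell (Myt1l), with a median of -0.64 and of -0.44 without s18, where none passed. Most members of these 3 lists were lower in MBD2aΔGR. A positive log2 fold change was held by 10 of 30 progenitor factors, 4 of 19 radial glia genes and 7 of 41 proneural and neuron genes. Summed over the proneural and neuron list, the level was 4674, 2675 and 1839 CPM against 6792, 3385 and 4851 CPM, and the sums overlapped. In the neural crest and placode list of 17 genes, 2 rose and 1 fell, with a median of 0.31, and 1 in each direction without s18, with a median of 0.18. The one that fell was Eya2, a transcriptional co-activator of placodes, at 8.29, 4.77 and 3.21 CPM against 27.5, 15.5 and 20.029 CPM (log2 fold change -1.96, SE 0.31, adjusted p = 0.0032), and the lines did not overlap.

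**Figure D4:**
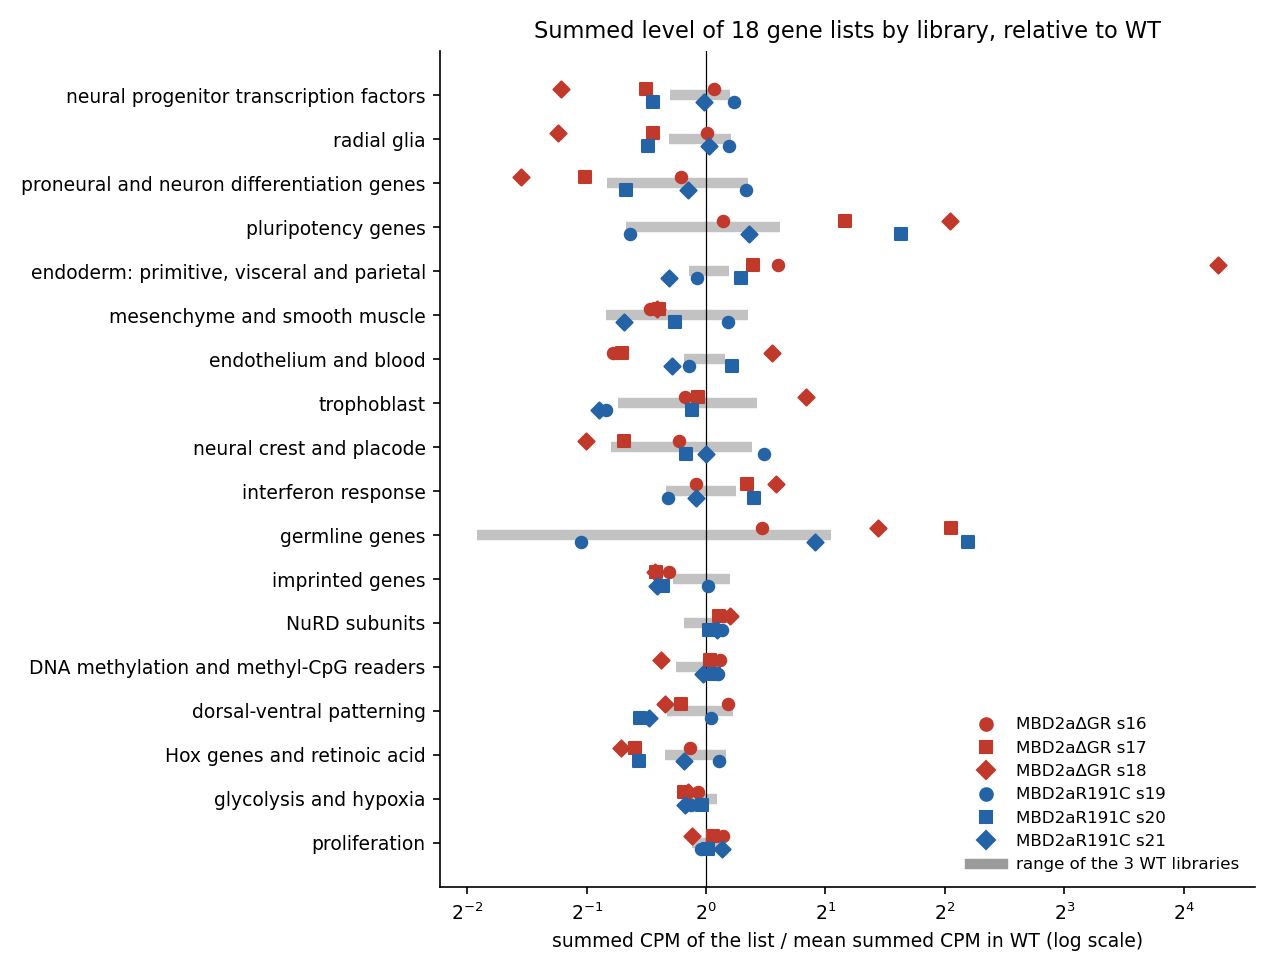
Summed CPM of 18 gene lists (rows) in each library, divided by the mean of the 3 WT libraries, on a log axis. Red symbols are MBD2aΔGR and blue symbols MBD2aR191C, with s18 and s21 as diamonds, and grey bars are the WT ranges. The s18 library is the only one of the 6 far above WT in the endoderm list, and is the lowest for neural progenitor and neuron genes.

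Of 27 pluripotency genes 1 rose (Klf4) and none fell, with a median of 0.17. Without s18 the median was -0.11 and none passed. Their summed level was 332, 671 and 1237 CPM in MBD2aΔGR and 193, 929 and 384 CPM in MBD2aR191C, so that a clone of each line was high. Klf4, which also acts in epithelia, was at 13.2, 14 and 153 CPM against 5.59, 10.9 and 5.58 CPM (log2 fold change 3.03, SE 0.67, adjusted p = 0.023), and the fold change without s18 was 0.89. Pou5f1, which encodes OCT4, was at 14.8, 39.3 and 50.2 CPM against 5.97, 71.1 and 30.9 CPM, and Nanog at 6.11, 27.6 and 29 CPM against 1.42, 58.7 and 20.5 CPM. In both lines the clones differed from each other far more than the lines did, with adjusted p of 0.98 and 0.91. Of 21 trophoblast genes 1 rose, Gata3 (9, 14 and 15.5 CPM against 5.42, 7.3 and 5.98 CPM), with a median of -0.51, and of -1.02 without s18, where none passed. Of 30 genes of the Hox clusters and retinoic acid metabolism 1 rose, Aldh1a1, with a median of -0.35, and none without s18, with a median of -0.20. With 1.28% of all genes called higher, the single calls in the pluripotency, trophoblast and Hox lists say little about those lists.

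In 6 lists of cellular processes and gene classes no member passed. These were interferon response (35 tested, median 0.26), germline genes (31, -0.10), imprinted genes (28, 0.01), NuRD subunits (24, -0.04), glycolysis and hypoxia (25, -0.10) and proliferation (26, -0.05). The same held for DNA methylation enzymes and methyl-CpG readers (21, -0.01). None of these lists had a member pass without s18 either, where the germline median was -0.44. The imprinted gene Peg10 was at 617, 676 and 752 CPM against 360.0, 573 and 313 CPM (adjusted p = 0.32), without overlap, as for 12% of all genes tested. The germline gene Dazl was at 1.57, 6.55 and 4.65 CPM against 1.25, 19.8 and 6.19 CPM (adjusted p = 0.54). The surface genes Cd24a and Ncam1, which serve as markers of the neuronal lineage, did not pass either (log2 fold change -0.20 with SE 0.18, and -0.88 with SE 0.42). A p that misses the threshold does not show equal levels. Of the Y-linked genes 3 were tested, and Eif2s3y was at 1.17, 4.74 and 0.997 CPM and 0.595, 0.51 and 0.714 CPM, compared with 17.4 to 29.1 CPM in WT.

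A smaller set held whichever library was left out. Of the 390 genes, 28 were called in each of the 6 fits that omit 1 library, 9 higher and 19 lower. For all 28 the lines did not overlap, beside 80.5% of the 390 and 12% of all genes tested. In the fit of the 6 libraries alone these had adjusted p from 0.0653 to 0.301 in edgeR and under 0.05 in DESeq2. They were chosen after their values were seen, by calls on these same libraries. Their lack of overlap and their DESeq2 p are therefore not independent of the choice. On the lower side they include Mfap2, Col1a1, Tpm2, Cdh5, Lama4 and Eya2, as well as Robo4, Rhoj and Adgrl4, which are expressed in endothelium. Robo4, a guidance receptor of vessels, was at 0.461, 0.804 and 0.249 CPM against 1.98, 2.6 and 2.12 CPM, and Rhoj, a small GTPase of endothelium, at 0.307, 0.417 and 0.0554 CPM against 4.04, 3.78 and 2.67 CPM. Th, the rate-limiting enzyme of catecholamine synthesis, was at 0.553, 0.238 and 0.554 CPM against 5.84, 2.44 and 4.37 CPM (log2 fold change -3.23, SE 0.47, adjusted p = 0.0017). Magohb, a core protein of the exon junction complex, was at 0.737, 0.864 and 0.554 CPM against 4.2, 4.78 and 3.52 CPM (log2 fold change -2.54, SE 0.29, adjusted p = 0.00021). WT was at 3 to 4.53 CPM and Mbd3 KO at 4.63 to 5.16 CPM. The others were Rgs4, Tmem204, Ctla2a, Cnrip1, Angptl1, Scn4b, Stk32c and Nol3, and Ctla2a has near-identical copies between which reads could be split.

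On the higher side, the 9 genes included Nr2e1, Six6, Gli1, Cldn10, Hrk, Kcnk16, Pkd1l1 and Gm13889. Nr2e1, an orphan nuclear receptor of forebrain neural stem cells (chr10:42281769-42303438), was at 3.07, 2.83 and 3.46 CPM against 0.467, 0.215 and 0.238 CPM (log2 fold change 3.29, SE 0.40, adjusted p = 0.00021). The 3 clones lay close together, above the WT range of 0.456 to 1.73 CPM, and Mbd3 KO was near the floor (0.0286 to 0.0885 CPM). Six6, a homeobox gene of the eye field and pituitary, was at 2.86, 2.11 and 2.24 CPM against 1.17, 0.859 and 1.01 CPM (log2 fold change 1.23, SE 0.23, adjusted p = 0.0093). Cldn10, a tight junction claudin, was at 1.6, 1.85 and 1.22 CPM against 0.212, 0.161 and 0.265 CPM, and Hrk, which promotes apoptosis, at 7.83, 10.8 and 13.5 CPM against 3.36, 4.78 and 3.62 CPM. Kcnk16, a potassium channel gene, was the lowest of the 9, at 0.461, 0.357 and 0.914 CPM against 0.0637, 0 and 0.0529 CPM, and its MBD2aR191C levels lay at or under the floor of 3 reads.

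Because the point mutation lies in the domain that binds methylated CpG, the CpGs at the starts of the called genes were counted. Upstream sequence of the first 2 genes on each side by p among the 28 is shown, 250 bases ending at the base before the annotated start, on the gene's strand, with every CpG in capitals. Nr2e1 (chr10:42303439-42303688, minus strand, mm9) has 17 CpGs and Cldn10 (chr14:119186843-119187092, plus strand) has 4. Mfap2 (chr4:140566083-140566332, plus strand) has 5 and Rgs4 (chr1:171677774-171678023, minus strand) has 13. For Mfap2 the RefSeq window on GRCm38.p6, at a different start, holds 18, so its count depends on the start chosen.
Nr2e1: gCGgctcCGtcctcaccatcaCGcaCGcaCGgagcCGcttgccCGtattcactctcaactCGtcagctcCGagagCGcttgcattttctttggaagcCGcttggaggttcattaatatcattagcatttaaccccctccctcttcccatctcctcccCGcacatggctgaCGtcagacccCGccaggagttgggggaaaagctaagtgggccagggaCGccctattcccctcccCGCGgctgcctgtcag
Cldn10: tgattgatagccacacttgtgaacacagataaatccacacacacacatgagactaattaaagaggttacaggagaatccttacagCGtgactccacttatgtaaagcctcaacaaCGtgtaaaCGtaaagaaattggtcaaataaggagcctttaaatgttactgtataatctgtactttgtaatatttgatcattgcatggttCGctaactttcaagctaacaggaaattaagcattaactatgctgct
Mfap2: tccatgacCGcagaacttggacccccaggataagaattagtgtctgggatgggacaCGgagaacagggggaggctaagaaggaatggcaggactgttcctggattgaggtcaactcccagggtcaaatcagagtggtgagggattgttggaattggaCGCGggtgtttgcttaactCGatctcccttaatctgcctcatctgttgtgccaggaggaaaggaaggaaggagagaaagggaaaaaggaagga
Rgs4: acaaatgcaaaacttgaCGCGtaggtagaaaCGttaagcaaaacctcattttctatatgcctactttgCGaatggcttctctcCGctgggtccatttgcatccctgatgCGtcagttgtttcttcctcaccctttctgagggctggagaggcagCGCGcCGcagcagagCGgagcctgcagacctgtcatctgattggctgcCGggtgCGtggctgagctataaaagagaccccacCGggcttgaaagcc

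Within 250 bases before to 50 after the start, 33.3% of the 390 called genes had a CpG observed to expected ratio of at least 0.6, compared with 59.3% of all genes tested. The share was 34.9% of the 212 genes called higher (95% Wilson interval 28.8 to 41.5%) and 31.5% of the 178 called lower (25.1 to 38.6%). The intervals take the genes as independent draws, which genes called from the same clones are not. They do not measure the spread between clones. Both shares lay below the share over all genes. Between Mbd3 KO and WT, which share no library with the 2 lines, 44.6% of the called genes had such a start. Methylation was not measured in these libraries, and the counts are a description of the sequence.

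Each line was also set against the reference lines. In the same fit, MBD2aR191C differed from WT in 3 genes (0.0181%), Mbd2 itself and the Y-linked genes Uty and Eif2s3y, and MBD2aΔGR in 856 (5.16%), or in 121 (22 higher, 99 lower) without s18. The study, with edgeR at these thresholds, reports no gene changed between MBD2aΔGR and WT, so the count here departs from it. It does not state the test or the libraries of its fit, and it used an earlier release of edgeR, so the methods may be unlike. For MBD2aR191C the study reports negligible change from WT, close to the count here. It describes both variants as rescuing neuronal differentiation. Against Mbd3 KO, MBD2aΔGR differed in 4175 genes (25.2%) and MBD2aR191C in 5164 (31.1%). Against unchanged MBD2a the counts were 3080 (18.6%) and 4525 (27.3%). These comparisons share libraries with one another, so only the values are given side by side. For Mfap2 the log2 fold change from WT was -4.90 in MBD2aΔGR and 0.057 in MBD2aR191C. For Cdh5 it was -3.44 and -0.30, and for Nr2e1 1.79 and -1.501. Nr2e1 thus lay above WT in MBD2aΔGR (adjusted p = 0.0049), while for MBD2aR191C the difference from WT did not pass (adjusted p = 0.86).

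Of the 178 genes lower in MBD2aΔGR, the WT mean was nearer to MBD2aR191C for 177 (99.4%), the MBD3a mean for 178 (100%) and the MBD3ΔMBD mean for 176 (98.9%). The mean of unchanged MBD2a was nearer to MBD2aR191C for 54 (30.3%). That of Mbd3 KO was nearer to MBD2aR191C for 106 (59.6%) and that of MBD2t for 105 (59.0%). Of the 212 higher genes, WT was nearer to MBD2aR191C for 180 (84.9%) and unchanged MBD2a for 33 (15.6%). Mbd3 KO was nearer to MBD2aR191C for 67 (31.6%) and MBD2t for 80 (37.7%). Each gene was chosen for its difference between the 2 lines, and the nearness to other lines is a description.

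Between Mbd3 KO and WT, 33.8% of all genes tested were called, 19.6% higher and 14.2% lower in Mbd3 KO. Of the 212 genes higher in MBD2aΔGR, 80 (37.7%) were also higher in Mbd3 KO and 11 (5.19%) lower, and the 80 are 2.46% of all genes higher in Mbd3 KO. Of the 178 genes lower in MBD2aΔGR, 81 (45.5%) were also lower in Mbd3 KO and 23 (12.9%) higher, and the 81 are 3.43% of all that were lower. Cdh5 and Tpm2 belong to the 23, while Mfap2 and Th belong to the 81. Nr2e1, higher in MBD2aΔGR, was lower in Mbd3 KO than in WT.

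Over all genes that Mbd3 KO changed, each library was placed on a scale from 0 (WT mean) to 100 (Mbd3 KO mean). The MBD2aΔGR clones lay at 2.16, 23.04 and 43.9 and the MBD2aR191C clones at -10.5, 28.8 and 4.21. The means of 23.04 ± 20.9 and 7.48 ± 19.8 (SD, n = 3 each) differed by 15.6 points, less than the spread between clones (exact permutation test, two-sided p = 0.5, where 0.1 is the smallest possible). Clones of unchanged MBD2a lay at 72.4 to 98.1. The s18 clone was farthest from WT among the 6, and it was also the clone with the highest Mbd2 level and the highest endoderm level, whose part in its position was not tested.

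**Figure D5:**
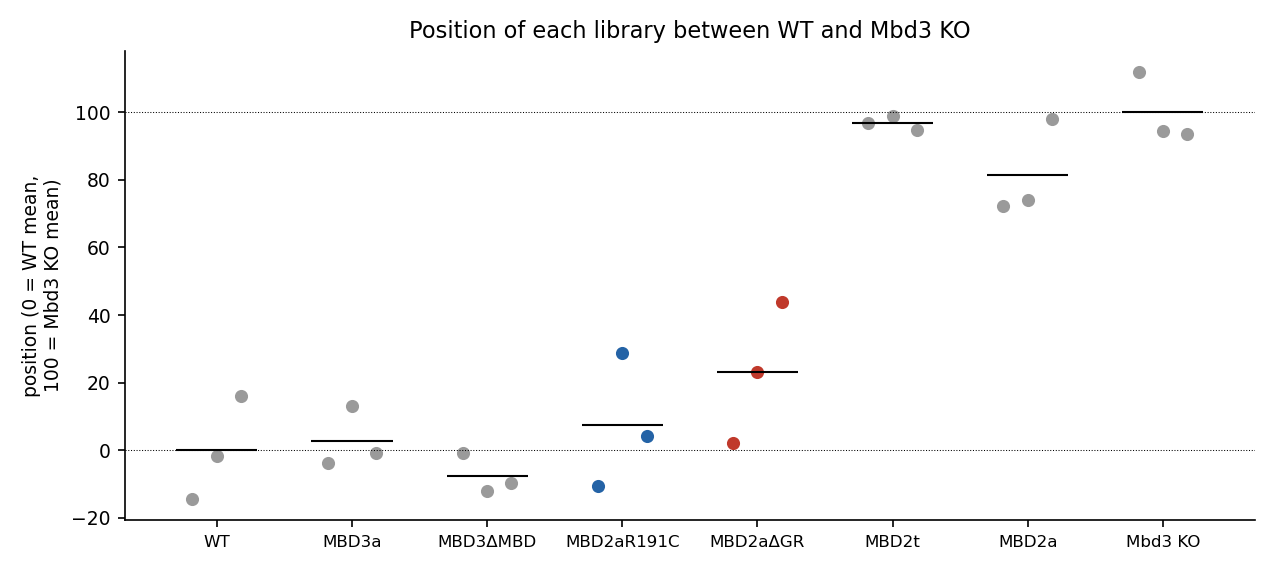
Each point is a library, placed by the mean log2 CPM of the genes that Mbd3 KO changed, from 0 at the WT mean to 100 at the Mbd3 KO mean, with a line at the mean of 3 libraries. MBD2aΔGR (2.16 to 43.9, red) and MBD2aR191C (-10.5 to 28.8, blue) overlap each other and lie below MBD2a and MBD2t.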

How the data were processed

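RNA was poly(A)-selected and sequenced as single-end reads from directional libraries. The authors trimmed reads with Trim Galore, aligned them with STAR to mm9 and deposited whole-number counts of reads per gene, not normalized, made with qCount. The strand setting of that step is not given in the sources used here. Column names carry the line and no replicate number. Members, gene lists and tests were chosen with earlier results of these data known.

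The deposited counts were passed to edgeR 4.0.16 (R 4.3.3): filterByExpr with lines as groups removed low genes, TMM gave the scaling, and glmQLFTest (legacy = FALSE) the p-values, in 1 fit of all 24 libraries with line as the factor, as the spread is then estimated over 8 lines, MBD2t (3 repeats of 1 clone) included. A call required a Benjamini-Hochberg adjusted p below 0.05 and a log2 fold change beyond 1 in either direction. SE is the absolute log2 fold change over the square root of F. The script was tested on simulated data. Alternatives were fits of fewer libraries, other scalings, filters and thresholds, DESeq2 1.42.0, limma 3.58.1 and leaving out each library. CPM used TMM library sizes, and totals of the 6 libraries were 33120415 to 49392806.

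Named genes were the 10 called genes that rose most and the 10 that fell most (log2 CPM averaging 1 or more, lines not overlapping), any gene called with only the 6 libraries, marker genes of the study, up to 4 members with the smallest p of each of 20 lists, and Y-linked genes. Called list members and genes called without any 1 library were added after their values were seen. Coordinates are from GENCODE on NCBIM37 (mm9), where all 25400 identifiers were found. RefSeq start windows had been planned for the CpG counts but matched only 68.7% of called genes, so 300 bases around the annotated start in NCBIM37 were used. The other samples of the series were not analysed here. A few genes that the naming rule selects are not reported here.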

Additional observations from a re-analysis of the deposited data

How the results depend on the processing

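The number of genes called (390) was 0 with only the 6 libraries, by edgeR's present and earlier quasi-likelihood tests and also without s18 in that fit, 218 by its likelihood ratio test and 242 by DESeq2. It was 157 (60 higher, 97 lower) without the MBD2t libraries, 750 (448 higher, 302 lower) with DESeq2 on all lines, 1 (Mfap2) with limma voom and a variance weight per line, 209 (87 higher, 122 lower) with a minimum of 1 CPM in 3 of the 6 libraries, 267 (113 higher, 154 lower) with the earlier quasi-likelihood test on all lines, 16 with glmTreat and 1449 with unadjusted p. RLE, upper quartile and library size scaling gave 389, 397 and 363. Leaving out 1 library gave 42 (without s18) to 1389 (without s16), with 48 without s19, 91 without s21, 648 without s17 and 780 without s20. List members called (55) went to 0 with only the 6 libraries and to 9 (without s18) to 109 (without s16) on leaving out a library. The share of called genes that changed the same way in Mbd3 KO (41.3%) ranged from 31.2% (without s19) to 64.9% (without s20), and the share with a CpG-rich start (33.3%) from 27.1% (without s19) to 41.0% (without s16). With 0 genes called from the 6 libraries alone, neither share could be computed there. The difference in position was between 5.12 points (without s18) and 26.2 (without s20), with an exact permutation p of at least 0.4 in every alternative run. Against WT, MBD2aΔGR differed in 856 genes and in 121 without s18. No named gene changed sign where called, and their calls were lost most often with limma voom and a variance weight per line (88 genes), with only the 6 libraries (87) and without s18 (59). The cause was not tested. The fits added after seeing the data were the earlier quasi-likelihood tests, the likelihood ratio test, the fit of 2 lines without s18 and the comparisons with the reference lines without s18. No paired analysis was possible because the columns carry no replicate number. Depth limits genes near the floor of 3 reads, such as Kcnk16.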

Other observations

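A few placental genes, chosen after their values were seen and not a tally of their families, had their lowest levels in MBD2aΔGR among the 6 libraries, and Prl7d1 passed the test. Prl7d1, of the prolactin family, was at 0.0307, 0.179 and 0.0831 CPM in MBD2aΔGR and 0.828, 4.11 and 4.21 CPM in MBD2aR191C (log2 fold change -4.88, SE 1.15, adjusted p = 0.03), with 0.59 to 2.04 CPM in WT and 14.4 to 23.3 CPM in Mbd3 KO. Serpinb9g, a serpin of trophoblast, was at 0.154, 0.179 and 0.194 CPM against 1.23, 8.42 and 4.97 CPM and did not pass (adjusted p = 0.062), and Serpinb9e, Serpinb9f and Serpinb9h had log2 fold changes of -4.02, -4.42 and -4.62 with adjusted p of 0.062, 0.059 and 0.074. Tpbpa, a spongiotrophoblast marker, was at 0, 0.179 and 0.138 CPM against 0.531, 3.97 and 3.07 CPM (adjusted p = 0.11). For each of these 6 genes the lines did not overlap, which also holds for 12% of all genes tested. Reads of these families can be split between near-identical copies. Gata3, which also marks trophoblast, rose. Of the 21 trophoblast list members 9 had a positive log2 fold change, among them Krt18 (1.51, adjusted p = 0.14) and Cdx2 (1.59, adjusted p = 0.12), which did not pass. Summed over that list, the level was 810, 876 and 1636 CPM in MBD2aΔGR and 514, 843 and 493 CPM in MBD2aR191C. The sums overlapped, and s18 was the highest of the 6 libraries, so the list as a whole was not lower in MBD2aΔGR.

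Stab1, Mmrn2, Ptch1 and Shh were also chosen after their values were seen. Stab1, a scavenger receptor of sinusoidal endothelium, was at 0.676, 0.625 and 0.415 CPM against 4.84, 4.75 and 3.1 CPM (log2 fold change -2.89, SE 0.70, adjusted p = 0.036), and Mmrn2, an endothelial matrix protein, at 0.86, 1.43 and 0.859 CPM against 5.54, 7.35 and 5.79 CPM (log2 fold change -2.57, SE 0.51, adjusted p = 0.016). Ptch1, the Hedgehog receptor and a target of the pathway, was at 185, 187 and 125 CPM against 96.7, 119 and 65.5 CPM and Shh, its ligand, at 2.8, 1.88 and 1.02 CPM against 0.828, 0.563 and 0.212 CPM. Neither passed (adjusted p = 0.098 and 0.23). For both genes the lines did not overlap, which also holds for 12% of all genes tested and adds little for genes chosen this way.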
